A study of Mus musculus with 5 samples.

Results

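Pkd1 and Tsc2 adjoin each other tail to tail on mouse chromosome 17, and their transcripts were followed here on tiling arrays of embryo fibroblast RNA. The stretch was set by position, 23150000 to 23204999 on chromosome 17 in the numbering of the array files. The sources used here do not give the build of that numbering. It spans 55 kb and holds 345 probes. Of its 55 windows of 1 kb, 47 had the 4 probes needed to be measured, out of 56080 measured windows on the chromosome. A further 7 windows had 1 to 3 probes and 1 had none, and these were not measured. The stretch was chosen on measured values, namely its lower level in total RNA than in polyA RNA of the MEFF line. That contrast is therefore given below as a description, and nothing is read from counts of called windows in it. The rule also names MEFB against MEFF, so the windows of that comparison are described in the same way. The structure of exons and introns was no part of the rule. The placing described below put 35 of the measured windows in Pkd1 and 12 in Tsc2.

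The arrays compared RNA of MEFF and MEFB, a pair of mouse embryo fibroblast lines that became immortal spontaneously. Both came from FVBN embryos taken 12.5 days after conception. Each carries the Thp deletion of at least 4.6 Mb on 1 copy of chromosome 17, between the genes T and Sod2, with the genotype written Thp/+ for MEFF and +/Thp for MEFB. Pkd1 and Tsc2 as placed lie outside that deletion. MEFF was measured on 2 arrays with total RNA and on 2 with polyA RNA, MEFB on 1 with polyA RNA, and each line is a single line in culture. Every array set Cy3-labelled double-stranded cDNA against Cy5-labelled sonicated genomic DNA of the same line, called input here. Such cDNA keeps no strand, so RNA of both strands was read together. A level below is log2(cDNA/input) minus the median of its array, so 0 is the middle probe of that array. No label ties the replicates to separate cultures, so the errors given may be only technical.

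Pkd1 encodes polycystin-1, a very large membrane protein that works with polycystin-2 at the primary cilium and at cell contacts. Its loss causes autosomal dominant polycystic kidney disease. Tsc2 encodes tuberin, which with hamartin (Tsc1) forms the complex that switches off the small GTPase Rheb and thereby holds back the growth kinase mTORC1. Its loss causes tuberous sclerosis, and deletions that remove both neighbours cause early, severe cystic kidneys together with tuberous sclerosis. Both are transcribed in many cell types, fibroblasts among them.

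Gene names rest on a placing of the probes on the NCBIM37 assembly that used the input signal and base composition alone and no cDNA value. The best shift for the stretch was 1541046 bases, which sets it at chr17:24691046-24746045 of NCBIM37. At that shift the input signal correlated with the signal predicted from the sequence at r = 0.41 across the probes, against -0.13 at the unshifted positions. The shift was picked for the highest correlation, and the model of base composition was first fitted around the stretch. A higher r than at the unshifted positions was therefore fixed in advance. A run of 10 overlapping blocks of 50 kb, from 22975001 to 23250000, gave the same shift with r between 0.30 and 0.50. Overlapping blocks share probes, and a weaker block could be accepted for a shift near that of its neighbours. Agreement along the run was therefore partly built in. These correlations are across probes that share their arrays and base composition. In the GENCODE M1 annotation, Pkd1 lies on the plus strand at chr17:24686895-24733459, with 46 exons and a transcript of 14170 bases. The stretch covers 91.1% of it and leaves out its start. Tsc2 lies on the minus strand at chr17:24732882-24769574, with 43 exons and a transcript of 6228 bases. The stretch covers 35.9% of it, the 3′ part. The 3′ ends of both genes overlap by 578 bases, and Tsc2 is separated from the start of Nthl1 by 52 bases.

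The 250 bases upstream of each start are shown because the promoters of these adjoining genes lie at opposite ends of the pair, and neither is in the chosen stretch. They are the RefSeq sequences of the GRCm38.p6 assembly, 5′ to 3′ on the strand of the gene. The Pkd1 promoter is chr17:24549700-24549949 on the plus strand, and capitals mark GC boxes (GGGCGG or CCGCCC). The Tsc2 promoter is chr17:24632628-24632877 on the minus strand, and capitals mark an ETS core (CCGGAAG, or CTTCCGG on the other strand).
Pkd1 promoter: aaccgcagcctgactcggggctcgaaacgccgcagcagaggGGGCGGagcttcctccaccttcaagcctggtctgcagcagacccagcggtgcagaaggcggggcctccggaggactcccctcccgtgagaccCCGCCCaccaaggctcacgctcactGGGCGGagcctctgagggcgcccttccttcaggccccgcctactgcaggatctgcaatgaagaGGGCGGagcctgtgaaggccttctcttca
Tsc2 promoter: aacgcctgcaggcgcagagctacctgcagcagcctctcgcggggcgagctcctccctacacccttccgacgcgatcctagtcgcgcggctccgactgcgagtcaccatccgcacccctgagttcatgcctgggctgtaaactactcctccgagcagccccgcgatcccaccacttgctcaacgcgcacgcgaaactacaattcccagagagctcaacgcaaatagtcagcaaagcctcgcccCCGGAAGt
The Pkd1 promoter held 4 GC boxes, and 32.7% of 32851 RefSeq promoters of the same length held at least 1. The Tsc2 promoter held 1 ETS core, which 6.91% of them held. Pkd1 had 16 CG dinucleotides and Tsc2 had 24, against a median of 6 over all promoters. These are matches of letters and say nothing of what binds there.

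For each gene the coding exon with the highest mean level over the 5 arrays, among those with at least 2 probes, is also shown, since the cDNA signal described below came from such exons. The sequences are 5′ to 3′ from the transcripts of the annotation, in lower case throughout. Exon 14 of Pkd1 is chr17:24708921-24709054 and exon 11 of Tsc2 is chr17:24759470-24759613, both of NCBIM37.
Pkd1 exon 14: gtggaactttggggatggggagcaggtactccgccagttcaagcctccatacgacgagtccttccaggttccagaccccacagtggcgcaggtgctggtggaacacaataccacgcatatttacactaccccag
Tsc2 exon 11: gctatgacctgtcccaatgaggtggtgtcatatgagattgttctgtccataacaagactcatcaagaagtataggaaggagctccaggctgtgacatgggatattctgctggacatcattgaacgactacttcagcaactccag
On these 134 bases of Pkd1, the level was 2.55 and 2.97 on the MEFF total arrays, 3.95 and 5.25 on the 2 polyA arrays of MEFF, and 4.69 on the MEFB array. On the 144 bases of Tsc2 it was 3.28, 2.73, 4.18, 5.45 and 5.64 in the same order of arrays. Both exons were lower on each total array than on each polyA array.

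The arrays differed in contrast over the whole chromosome. The median cDNA intensity was 1568 on MEFF polyA replicate 1 and 569 on replicate 2, against 2561 and 2542 on the total arrays and 747 on the MEFB array. The SD of all windows was 0.46 and 0.47 on the total arrays, 0.47 and 0.78 on the polyA arrays of MEFF and 0.72 on the MEFB array. Depth is not counted on an array, and the number of arrays limits the precision. Of the markers of other cell types that could be placed, Cldn6 (epithelium), Trem2 and Aif1 (macrophage), H2-Ab1 and H2-Eb1 (antigen-presenting cells) and Pou5f1 (pluripotent cells) had exon means between -0.93 and 0.19 on every array. Cldn9 (epithelium) reached 1.47 and Nkx2-5 (heart) 2.25 on MEFF polyA replicate 2, with 0.08 and -0.10 on the MEFB array. The fibroblast markers Thbs2 and Cyp1b1 stood at 5.32 and 5.10 on the MEFB array and at 2.04 and 2.55 or less on every MEFF array, and Efna5 was between 2.03 and 4.18 on all 5 arrays. On the MEFF arrays Thbs2 ranked between percentile 35.3 and 45.8 of the 238 placed genes. Epcam, Emr1 and H2-Aa had no exonic probe placed. The part of these differences between the lines in the results below was not tested. In bulk RNA fewer cells of a type and less RNA per cell cannot be told apart.

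Over the 47 measured windows the mean level was 0.89 and 0.88 on the MEFF total arrays, 1.39 and 2.36 on the 2 polyA arrays of MEFF, and 2.19 on the MEFB array. Both total arrays lay below both polyA arrays, and the MEFB array lay between the MEFF polyA arrays. Divided by the SD of all windows of the same array, those means were 1.92, 1.89, 2.96, 3.02 and 3.03 SD. The median window of the stretch stood at percentile 96.9, 96.5, 97.4, 97.8 and 98.3 of all windows of its array, so the stretch, mostly Pkd1, ranked high in every RNA. The highest window of Pkd1 on the MEFB array was 23170000 to 23170999, inside exon 15, at 2.14 and 2.01 in total RNA, 3.23 and 4.61 in polyA RNA of MEFF and 4.19 in MEFB. Its lowest on that array was 23153000 to 23153999, in intron 1, at 0.21, 0.21, 0.51, 0.92 and 0.81. For Tsc2 the highest was 23193000 to 23193999, at 1.27, 1.09, 1.47, 2.51 and 2.56, and the lowest was 23204000 to 23204999, which holds no exonic probe, at 0.10, 0.05, -0.03, 0.66 and 0.50. In total RNA the gap from the lowest to the highest window was larger in both genes than the spread between replicates, whose SD at these 4 windows was at most 0.13. Not all high windows were exonic: the one from 23166000, with 8 intronic and 0 exonic probes, stood at 1.10, 0.90, 1.59, 2.44 and 2.57.

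**Figure D1:**
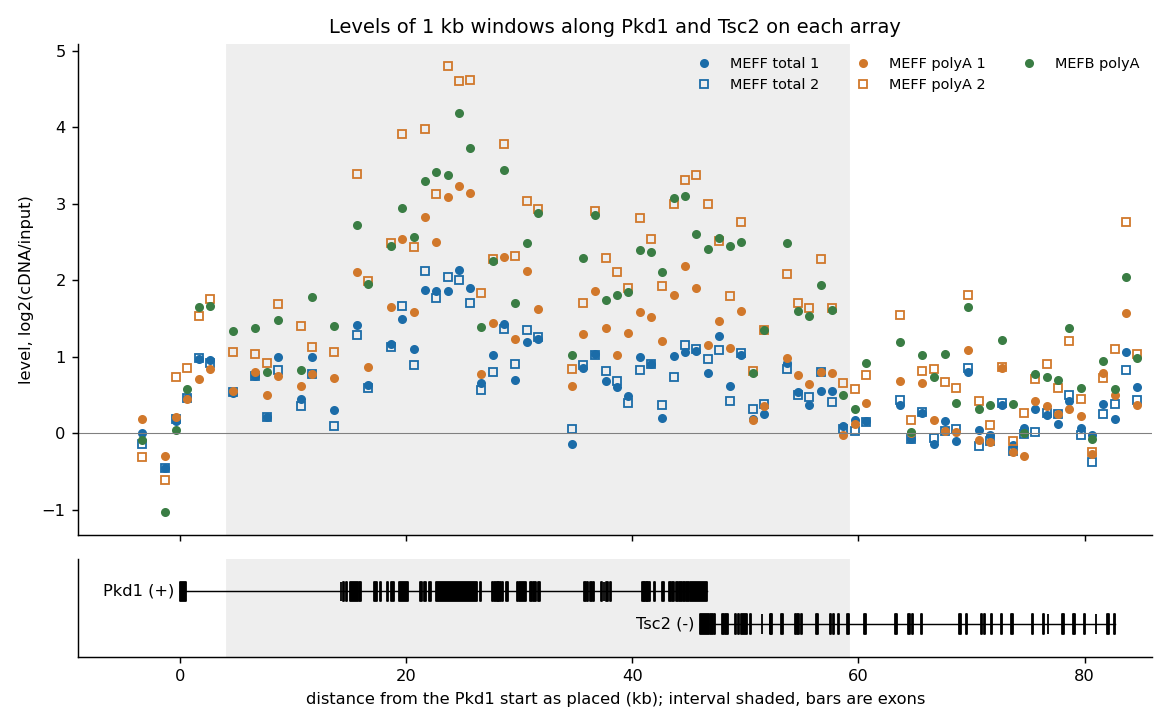
Each point is the level (log2 cDNA/input, centred on the array median) of a 1 kb window with at least 4 probes on 1 of the 5 arrays, against the distance in kb from the Pkd1 start as placed; the chosen stretch is shaded and bars below mark the annotated exons. The polyA arrays rise to between 3.08 and 4.80 over Pkd1 exon 15, where the total arrays stay between 1.70 and 2.14. In the 5′ part of Tsc2 outside the stretch, where most probes are intronic, windows lie between -0.38 and 1.81.

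At the borders of the stretch the levels did not step. Just inside its lower end, the window from 23150000 stood at 0.53 and 0.54 in total RNA, 0.55 and 1.06 in polyA RNA of MEFF and 1.34 in MEFB. Just outside, the window from 23148000, the nearest one measured, stood at 0.96, 0.92, 0.84, 1.76 and 1.67. At the upper end the window from 23204000, given above, differed between total and polyA RNA by -0.24, and the one from 23205000 outside by -0.25. As placed, the lower border falls within intron 1 of Pkd1 and the upper one within exon 22 of Tsc2, which no probe measured. Near the Pkd1 start, the window from 23145000 was at 0.17, 0.19, 0.22, 0.74 and 0.05 and the window from 23144000 before it at -0.46, -0.46, -0.29, -0.61 and -1.03. Farther upstream, the window from 23142000 stood at 0.01, -0.14, 0.19, -0.30 and -0.09. The placed start of Pkd1, 23145849, lies near the end of the window from 23145000.

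Exons and introns separated clearly once single probes were sorted by the annotation, which the choice of the stretch had not used. The levels are not free of that choice, since 91 of the 95 exonic probes of Pkd1 and 12 of the 26 of Tsc2 lie inside the stretch. Over the whole of Pkd1, 95 exonic probes had mean levels of 1.82 and 1.87 on the total arrays, 2.95 and 4.30 on the polyA arrays of MEFF and 3.58 on the MEFB array. The 163 intronic probes of Pkd1 had 0.58, 0.52, 0.80, 1.48 and 1.50. For Tsc2, 26 exonic probes had 2.05 and 1.99 in total RNA, 3.09 and 4.45 in polyA RNA of MEFF and 4.43 in MEFB. Its 177 intronic probes had 0.07, 0.04, 0.07, 0.53 and 0.54. Exons exceeded introns on 5 of 5 arrays in both genes. On the 4 MEFF arrays the Tsc2 exon mean was 0.11 to 0.23 above that of Pkd1, and on the MEFB array 0.84 above it, although the 1 kb windows of Tsc2 were lower. Within the stretch, Tsc2 windows averaged 0.60 and 0.61 on the total arrays and Pkd1 windows 0.99 and 0.97. There Tsc2 had 12 exonic against 56 intronic probes and Pkd1 had 91 against 145.

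**Figure D2:**
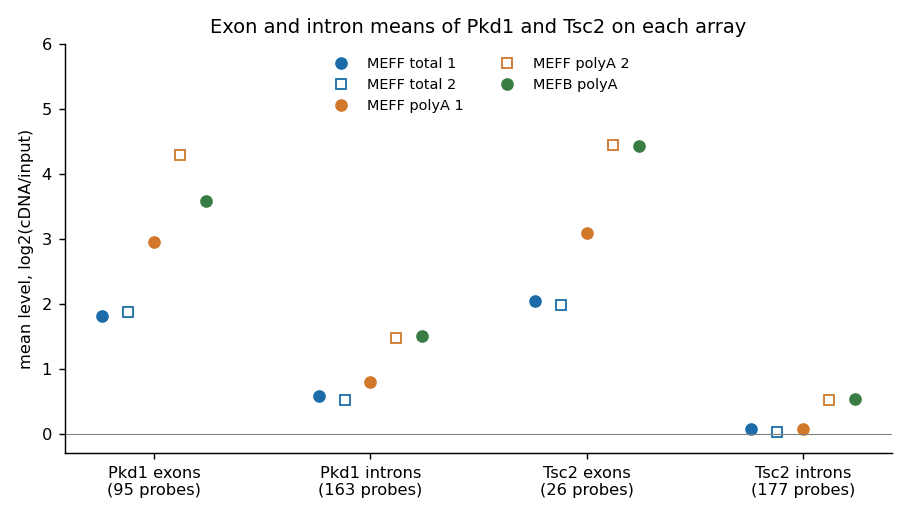
Mean level (log2 cDNA/input) of all exonic and all intronic probes of Pkd1 and Tsc2, 1 point per array. Exon means lie between 1.82 and 4.45 and overlap between the genes, and Pkd1 introns lie between 0.52 and 1.50 and Tsc2 introns between 0.04 and 0.54.

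Exon minus intron, the contrast for Pkd1 was 1.30 ± 0.08 (SD, n = 2) in MEFF total RNA, 2.49 ± 0.47 (SD, n = 2) in polyA RNA of MEFF and 2.09 on the MEFB array. For Tsc2 it was 1.97 ± 0.02 (SD, n = 2), 3.47 ± 0.64 (SD, n = 2) and 3.89. The contrast of Tsc2 was the higher one on 5 of 5 arrays, and on 2 of 5 when any overlap with an exon counted as exonic. After loess the Pkd1 contrast of the total arrays, 1.30 and 1.45, overlapped with that of the MEFF polyA arrays, 2.12 and 1.42. After quantile normalization total and polyA RNA of MEFF lay much closer, at 1.81 and 1.99 against 2.03 and 2.11 for Pkd1 and at 2.77 and 2.77 against 3.07 and 2.93 for Tsc2. With 2 arrays against 2, the smallest two-sided p that an exact permutation test can give is 0.33, and no other test of these contrasts was run. In the input channel the same contrast ran the other way, between -0.28 and -0.13 for Pkd1 and between -0.62 and -0.18 for Tsc2. Exonic probes of Pkd1 held 57.7% G and C against 49.1% in its introns, and those of Tsc2 53.7% against 51.5%. With the cDNA channel alone, with no division by input, the contrast was between 1.06 and 2.54 over the arrays for Pkd1 and between 1.71 and 3.35 for Tsc2. Of the 95 exonic probes of Pkd1, between 84 and 90 exceeded the median of its introns on each array. Of the 26 in Tsc2, between 24 and 26 did. Among 219 genes of the chromosome placed with at least 20 probes of each kind, the median contrast was 0.58 and 0.61 in total RNA, 1.20 and 1.68 in polyA RNA of MEFF and 1.67 in MEFB. Pkd1 stood between percentile 63.5 and 85.4 of these genes and Tsc2 between 96.8 and 98.2. The larger contrast in polyA RNA and these ranks draw in part on the values that chose the stretch, so they are a description.

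Moving the placing off its shift lowered the contrast. When probes were assigned 50 bases to either side, the mean contrast over the 5 arrays was 1.47 and 1.49 for Pkd1 in place of 1.93, and 1.22 and 1.42 for Tsc2 in place of 2.95. At 2000 bases to either side it was 0.50 and 0.61 for Pkd1 and 0.16 and -0.09 for Tsc2. At 5000 bases it was 0.21 and 0.46 for Pkd1 and 0.23 and 0.73 for Tsc2. The placing itself had used no cDNA value.

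**Figure D3:**
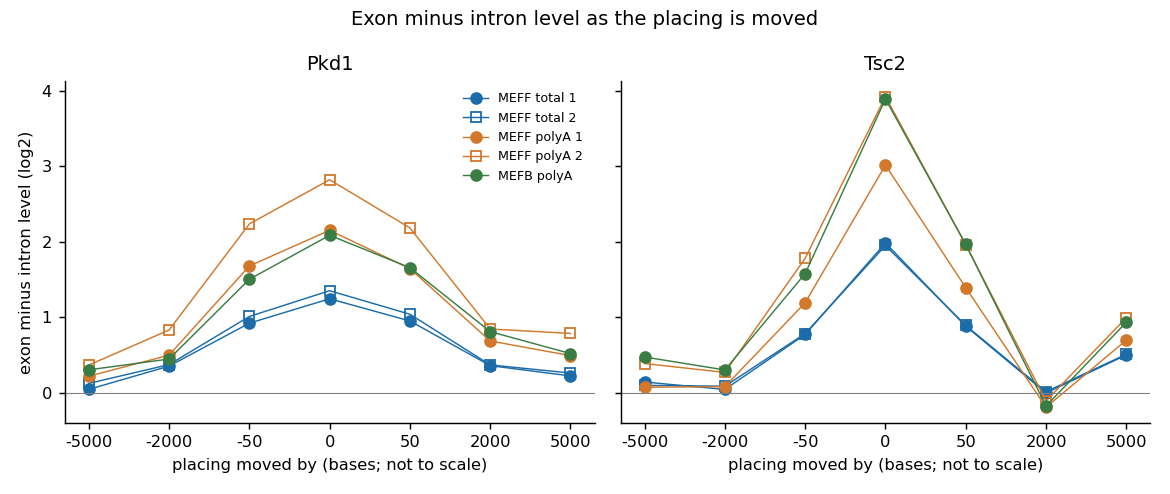
Exon minus intron level of Pkd1 (left) and Tsc2 (right) on each array when the placing is moved by the number of bases on the x axis, which is not to scale. On every array the contrast is highest at the placing used and, at 2000 bases to either side, no higher than 0.84 for Pkd1 and 0.30 for Tsc2.

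The introns of Pkd1 ranked higher among genes than those of Tsc2 on every array. Among the 219 genes, the Pkd1 introns stood at percentile 89.0 and 89.5 in total RNA, 92.7 and 94.5 in polyA RNA of MEFF and 98.6 in MEFB. Tsc2 introns stood at percentile 40.6, 41.6, 42.5, 59.8 and 63.0, nearer to the middle gene. Probes at least 200 bases from any annotated exon gave much the same: 104 of them in Pkd1 averaged 0.64, 0.56, 0.80, 1.42 and 1.48, and 89 in Tsc2 averaged 0.11, 0.07, 0.09, 0.60 and 0.60. Intron 1 of Pkd1, 13672 bases long with 69 probes, stood at 0.63 and 0.55 in total RNA, 0.67 and 1.23 in polyA RNA of MEFF and 1.30 in MEFB. Its total and MEFF polyA levels differed by -0.36, and those of the other introns of Pkd1 by -0.76. Among the introns of Pkd1 with at least 4 probes, intron 11 was the highest on all 5 arrays, at 1.10, 0.90, 1.59, 2.44 and 2.57 over 8 probes. In Tsc2, introns 25 and 26 were among the higher ones, at 0.52, 0.71, 0.71, 2.07 and 1.79 for intron 25 and at 0.45, 0.56, 0.72, 1.81 and 1.67 for intron 26, while intron 3 stayed between -0.50 and -0.18 on every array. These introns were picked after their values were seen. Without strand, RNA of an intron and of an antisense transcript cannot be told apart.

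Probes covered 36 of the 46 exons of Pkd1 and 21 of the 43 exons of Tsc2. Exon 15 of Pkd1, chr17:24709563-24713188 of NCBIM37, is 3626 bases long and had 26 probes, the most of any exon in the pair. It codes for part of the large extracellular region of polycystin-1. Its level was 2.17 and 2.09 in total RNA, 3.30 and 4.73 in polyA RNA of MEFF and 4.03 in MEFB, with the MEFB array between the MEFF polyA replicates. Exon 1 of Pkd1, with 4 probes, stayed near 0 on every array, at -0.01, 0.25, 0.19, 0.39 and 0.01. Exon 1 of Tsc2, with 1 probe, was also low, at 0.04, 0.58, 0.32, 1.25 and -0.09. The last exon of Pkd1, exon 46, with 9 probes, was at 1.23, 1.33, 2.09, 3.75 and 3.05. The last exon of Tsc2, exon 43, with 3 probes, was lower, at 0.33, 0.60, 1.04, 2.70 and 2.43, while exon 41 nearby reached 3.69, 3.67, 5.08, 6.27 and 6.61 with 1 probe. Most exons rest on 1 to 3 probes, so single exons are described and not compared. The 3 probes counted in Pkd1 exons that also touched an exon of an overlapping gene were at 1.17, 1.38, 2.13, 3.95 and 3.74. They need not lie wholly within bases shared with Tsc2, and without strand the gene read by shared bases cannot be told.

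**Figure D4:**
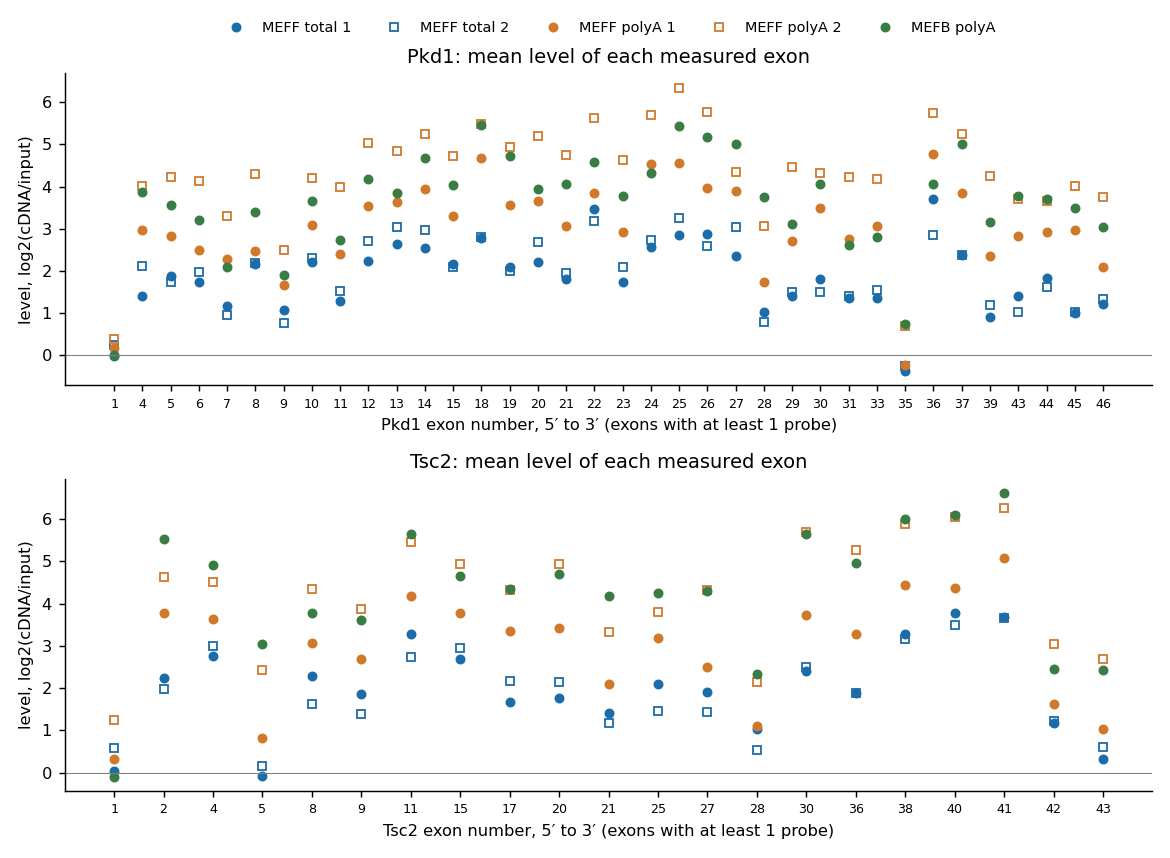
Mean level (log2 cDNA/input) of each exon with at least 1 probe, 5′ to 3′, on each of the 5 arrays, for Pkd1 (upper) and Tsc2 (lower). Exon 1 of Pkd1 lies between -0.01 and 0.39 on all arrays and the highest Tsc2 exon, exon 41, reaches 6.61 on the MEFB array.

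Total RNA lay below polyA RNA of MEFF along nearly all of the exon sequence, as the choice of the stretch fixed for the part inside it. The exon means differed by -1.78 for Pkd1 and by -1.75 for Tsc2, the intron means by -0.59 and -0.25. In 35 of 36 measured exons of Pkd1 and 20 of 21 of Tsc2, both total arrays were below both MEFF polyA arrays. By single exonic probes this held at 91 of 95 and 25 of 26, against 65.5% of 8395 exonic probes of all placed genes, and by exon means in 82.8% of 238 genes. Over the 47 windows of the stretch this held in 42, against 21.1% of all windows of the chromosome, and nothing is read from that count. The largest differences were -2.08 in the window from 23171000, -1.99 in that from 23169000 and -1.85 in that from 23170000, all placed in exon 15 of Pkd1. No window of the stretch was higher in total RNA, and the smallest difference was -0.07 in the window from 23157000, in intron 1. Along the Pkd1 transcript cut into parts of equal length, the exon difference was -1.43 in the 5′ part (32 probes), -1.98 in the middle (36 probes) and -1.90 in the 3′ part (30 probes). For Tsc2 those values were -1.58, -1.77 and -1.80 over 11, 7 and 10 probes. These parts, like the single exons, also count probes that touch an exon of an overlapping gene, which the gene means leave out. A lower level in total RNA was general: the exon mean was lower in total RNA for 225 of 238 genes with at least 20 exonic probes, with a median difference of -0.99.

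With limma and Benjamini-Hochberg adjustment over all 56080 windows, 0 windows of the chromosome (0%) passed an adjusted p of 0.05 for total against polyA RNA, and none of the stretch. At an unadjusted p under 0.05 there were 4209 windows over the chromosome and 30 of 47 in the stretch. After normexp background correction 368 windows were called lower (0.656%), of which 8 lay in the stretch, and after quantile normalization 1181 (2.11%), of which 11 did. All of these rest on the contrast that chose the stretch. The MEFF polyA replicates were far apart and set the error. With either of them left out, the only spread in the fit was that between the MEFF total arrays, so calls of such fits are not given. The mean difference over the stretch was -0.99, and -0.38 after quantile normalization. It was -1.47 without MEFF polyA replicate 1 and -0.50 without replicate 2.

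MEFB polyA RNA was then set against MEFF polyA RNA, the comparison of lines with opposite parental copies of the deletion. It shares the MEFF polyA arrays with the contrast that chose the stretch, and MEFB had 1 array, taken to vary like the other groups. In 34 of 47 windows the MEFB level lay between the 2 MEFF polyA arrays, in 13 (27.7%) it lay above both, against 34.3% of all windows, and in 0 below both, against 32.9%. The windows with the largest rise of MEFB over the MEFF polyA mean were those from 23194000 (1.00) and 23199000 (0.95) in Tsc2 and 23157000 (0.83) in Pkd1. At 23194000 the levels were 1.12 and 1.79 on the 2 polyA arrays of MEFF, and 2.46 on the MEFB array. The largest differences the other way were -0.56 from 23169000, -0.28 from 23165000 and -0.18 from 23156000, all in Pkd1, and in each of these the MEFB level lay between the MEFF polyA arrays.

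The limma fit called 0 windows of the stretch for MEFB against MEFF polyA, with 4 windows (0.00713%) called over the chromosome and 7977 windows over the chromosome and 4 of 47 at an unadjusted p under 0.05. The lowest adjusted p in the stretch was 0.23. After normexp 371 windows (0.662%) were called over the chromosome and after quantile normalization 1629 (2.9%), and 0 of the stretch in either. The mean difference over the stretch was 0.31, -0.09 after normexp and 0.04 after quantile normalization, so its sign depended on the scaling. It also turned on which MEFF polyA replicate was kept. Without replicate 1 the mean was -0.17, and without replicate 2 it was 0.80. Those 2 fits set 1 array against 1, and their only spread was that between the MEFF total arrays, so their calls are not given. No difference of the pair as a whole between the lines held across all the fits above.

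The distance between the exon means of Tsc2 and Pkd1 was larger on the single MEFB array than on the MEFF arrays under some settings and not under others, a comparison made after the values were seen. On the MEFB array the Tsc2 exon mean exceeded that of Pkd1 by 0.84, and on the MEFF arrays by 0.23 and 0.11 in total RNA and by 0.14 and 0.15 in polyA RNA. The 4 MEFF arrays, of either RNA, lay within 0.11 to 0.23 although their own exon means ranged widely. The difference between genes on 1 array reflects probes as well as RNA, and only its change between arrays is read here. The MEFB value exceeded the MEFF mean by 0.69, and by 0.85 after normexp, 0.58 after quantile normalization, 0.48 after loess, 0.53 with the cDNA channel alone and 0.84 without dim probes. In each of those 5 the MEFB array lay above all 4 MEFF arrays. When probes that overlap an exon by any length counted as exonic, or the placing was moved by 50 bases, the excess was 0.17, 0.20 and 0.09 and the MEFB value fell within the MEFF range. Under those 3 the Tsc2 mean lay below that of Pkd1 on every array, with differences of -0.54, -0.64 and -0.98 on the MEFB array. With 1 array against 4, the smallest one-sided p of an exact permutation test is 0.20, and no other test of this difference was run.

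**Figure D5:**
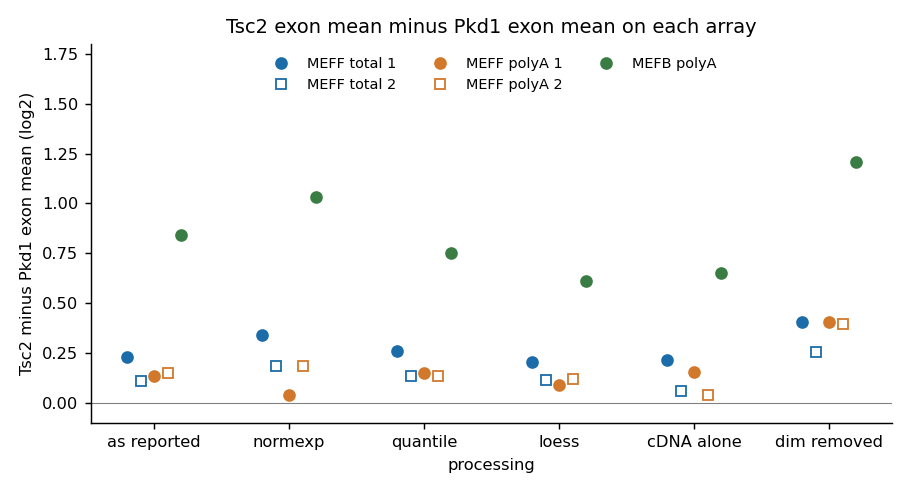
Tsc2 exon mean minus Pkd1 exon mean (log2) on each of the 5 arrays, under the processing named on the x axis. The MEFB point lies between 0.61 and 1.21, above the 4 MEFF points, which lie between 0.04 and 0.41.

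Exon by exon, MEFB exceeded both MEFF polyA arrays in 11 of 21 measured exons of Tsc2 and in 5 of 36 of Pkd1. It lay below both in 1 and in 6. By single exonic probes it exceeded both in 14 of 26 for Tsc2 and 12 of 95 for Pkd1, against 35.3% of exonic probes of all placed genes. The exon means of all 238 genes give the background: MEFB exceeded both MEFF polyA arrays in 28.6% of genes and lay below both in 21.4%. The difference of the exon mean between MEFB and MEFF polyA was 0.66 for Tsc2, at percentile 83.2 of these genes, and -0.04 for Pkd1, at percentile 37.8, with a median of 0.06 over all of them. In introns, MEFB exceeded both MEFF polyA arrays at 78 of 163 probes of Pkd1 (47.9%) and 71 of 177 of Tsc2 (40.1%), both near the 41.6% of intronic probes of all placed genes.

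The neighbours of the pair had lower exon means than the pair, apart from Traf7. Upstream of Pkd1, Rab26, a small GTPase of secretory vesicles, was at 0.34, 0.36, 0.19, 0.48 and 0.07 over 10 probes in the usual order of arrays. Nthl1, a DNA glycosylase that removes oxidised pyrimidines and starts next to the Tsc2 start, was at 0.82, 0.84, 1.95, 3.79 and 2.43 over 5 probes. Slc9a3r2, a scaffold of membrane transporters, was at 0.52, 0.62, 1.50, 2.47 and 2.37. Traf7, a ubiquitin ligase farther away, was at 2.11, 2.19, 3.43, 5.33 and 4.62, and Caskin1, a scaffold of synapses, stayed between -0.05 and 0.38. Rab26 and Caskin1 were near 0 in every RNA while Pkd1 between Rab26 and Tsc2 ranked between percentile 86.6 and 92.4 of placed genes and Tsc2 between 92.0 and 97.1.

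Of the chromosome 17 genes of the TSC and mTOR pathway listed for this report, 4 of 6 could be measured, and no gene was tested by itself. Mlst8, a subunit of the mTOR complexes, was at 0.71, 0.80, 1.84, 3.16 and 2.64. Pdpk1, the kinase that activates AKT and S6 kinase, was at 1.26, 1.18, 1.69, 2.64 and 2.25. Ppp2r1a, the scaffold subunit of protein phosphatase 2A, was at 1.97, 1.97, 2.93, 3.77 and 3.55. In all 4, Tsc2 included, both total arrays were below both MEFF polyA arrays, which held for 197 of 238 genes (82.8%). The MEFB array lay between the MEFF polyA arrays in all 4. Rps6ka2 and Ppp2r5d had no exonic probe placed. Of the cilium genes, Ift140, a subunit of the intraflagellar transport complex A, was at 0.88, 0.95, 1.81, 2.87 and 2.09, below Pkd1 on all 5 arrays.

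By the root mean square difference of exon means over the 5 arrays, the genes most like Pkd1 included D17Wsu92e (0.05), Prrc2a (0.18), Polh (0.19) and Mapk14 (0.19). D17Wsu92e stood at 1.78, 1.87, 2.96, 4.33 and 3.48. Polh is a translesion DNA polymerase and Mapk14 the stress kinase p38 alpha. Those most like Tsc2 were Prepl (0.15), Eml4 (0.22), Mut (0.24), Zfp57 (0.25) and Smchd1 (0.28). Prepl stood at 2.07, 1.94, 3.39, 4.6 and 4.42. Smchd1 is a chromatin protein of the inactive X chromosome, and Mut is the mitochondrial methylmalonyl-CoA mutase. These names depend on the same placing by the input signal, so an error of a block would misname its genes.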

How the data were processed

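RNA of the MEFF and MEFB lines was measured on 5 2-colour tiling arrays of mouse chromosome 17, of which MEFF total RNA and MEFF polyA RNA had 2 each and MEFB polyA RNA had 1. The files hold unnormalised intensity values per probe for the cDNA (Cy3) and the input (Cy5) channel, as deposited, and per the file headers NimbleScan 2.2.34 took them from the images. The array maker labelled and hybridised the samples, and input DNA was amplified by T7, per the labels' protocols. No array had the dyes the other way round, so a shared dye effect remains in a level. Only a part of it that is constant cancels when arrays are compared, and a part that varies with intensity does not. The array held 388000 probes, 387986 on chromosome 17, with a median spacing of 139 bases, and between 1 and 81 probes per channel at the scanner limit were kept.

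Log2(cDNA/input) was centred on each array's median with no background correction and averaged over 1 kb windows with at least 4 probes. limma 3.58.1 in R 4.3.3 (lmFit, eBayes, 3 group means, 5 arrays, 2 residual degrees of freedom) gave p-values with Benjamini-Hochberg adjustment over all windows, at a threshold of 0.05. Both the fit and the placing were also run on simulated data, and the outcome is not reported here. The simulation of the fit gave every window and array the same spread, unlike the real arrays. Blocks of 50 kb were placed on NCBIM37 by correlating input with the signal predicted from base composition over 50 bases per probe, which placed 79.2% of probes. A probe counted as exonic with at least 40 of 50 bases in exons of 1 gene, and as intronic with none in any exon. Exons were numbered along the annotated transcript with the most exons. Levels per gene are means of probes with no test.

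Named were both genes and their neighbours, a list of pathway and marker genes, per gene the highest and lowest window on the MEFB array, the 3 largest differences in each direction, the windows at the borders, and the 5 genes most alike, of which 1 is not reported here. No window of the stretch was higher in total RNA, so that direction has none. The members and lists were chosen with earlier results of these data known. Alternatives were other windows, medians, normexp (offset 50), loess (span 0.3), quantile, cDNA alone, removal of the dimmest 10% of input probes, a trended prior, a fit without the group not compared, and each replicate left out. Normexp with a replicate left out, and placing moved by 2000 and 5000 bases, were added after seeing the data. The MEFB array has no replicate. The headers put all arrays in 1 image extraction run, so no batch could be tested.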

Additional observations from a re-analysis of the deposited data

How the results depend on the processing

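The mean difference of the stretch between MEFF total and polyA RNA kept its sign under all 16 alternatives, from -1.47 to -0.38. Its count of called windows rose from 0 to 8 after normexp and 11 after quantile normalization, and over single replicates left out it ranged from 0 to 45. Normexp without a total replicate gave 7 and 2, and without MEFF polyA replicate 1 or 2 it gave 14 and 0. Over the chromosome the counts were 384 after normexp, 2000 after quantile normalization, 0 to 12116 with a replicate left out, and 245, 139, 767 and 2 for normexp with each replicate left out.

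For MEFB against MEFF polyA, the chromosome count of 4 became 1 with 5 kb windows, 20 with medians, 371 after normexp, 136 after loess, 1629 after quantile normalization, 59 with cDNA alone, 892 with a trended prior and 1 with the compared groups alone. It was 1 to 18474 with a replicate left out, and 489, 489, 501 and 178 for normexp with each left out. In the stretch the count stayed at 0 in 15 of 18 alternatives, ranged from 0 to 43 with a replicate left out, and was 1 for normexp without MEFF polyA replicate 1, where the mean was -0.48.

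The mean contrast of exons over introns on the 5 arrays, 1.93 for Pkd1 and 2.95 for Tsc2, became 2.60 and 4.24 after normexp. For Pkd1 it was 1.55 after loess, 1.49 and 1.47 with the placing moved by 50 bases, 0.50 and 0.61 at 2000 bases and 0.21 and 0.46 at 5000. For Tsc2 it was 1.64 with any overlap, 1.42 and 1.22 at 50 bases, 0.16 and -0.094 at 2000, and 0.23 and 0.73 at 5000. Moving the placing mixes exonic with intronic probes by construction. The cause of the other changes was not tested. No paired analysis was possible because the labels number no replicates. Arrays of 1 or 2 a group limit every error given, and most exons rest on few probes.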
